A study of Homo sapiens with 12 samples.

Results

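The genes described here are 37 targets and regulators of the hypoxia-inducible factors (HIF) other than the enzymes of glycolysis, chosen by gene symbol, in LNCaP cells. On the arrays 35 of the 37 were read by 56 probes, 31 had a probe above the filter on dim probes and were tested among 12420 genes, 4 lay under it, and CA9 and PPFIA4 are not analysed here. LNCaP is an androgen-responsive human cell line from a lymph node metastasis of a prostate cancer. Cells in RPMI with 10% serum, in an incubator at 5% CO2, were transfected by Lipofectamine2000 with a plasmid for full-length FOXA1 (pcDNA3.1_FoxA1, 6 arrays) or, as control, with pcDNA3.1_GFP (6 arrays), each plasmid at a labelled 3 µM, and were harvested after 48 h. No array came from untransfected cells, no oxygen treatment is labelled, and both groups carry the same numbers, 1 to 6, in their labels. Nothing in the labels tells separate cultures from repeats of one, and the p-values given here cover the spread between samples alone, technical spread included. The transfection was transient, in 1 cell line, and the share of cells that took up the plasmid is not given.

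HIF is a pair of proteins, an alpha subunit (HIF1A or EPAS1) and the constant partner ARNT. While oxygen is plentiful, the prolyl hydroxylases EGLN1, EGLN2 and EGLN3 mark the alpha subunit and the VHL ubiquitin ligase destroys it, and HIF1AN, an asparaginyl hydroxylase, blocks its activation domain. With little oxygen the alpha subunit persists at the protein level, binds the short core sequence of hypoxia response elements and switches on genes for blood vessel growth, collagen modification, mitophagy, pH control and metabolism. The arrays measured mRNA, not the HIF proteins or oxygen.

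Values are log2 intensities of the authors' normalized table, in which 1 unit is a 2-fold difference in probe intensity. The mean of a gene over the 12 arrays was set against a background estimate of 7.54, and 30 of the 31 tested genes stood above it, ARNT being the exception at 7.51. FOXA1 itself, the gene on the plasmid, read 13.43 ± 0.13 (SD, n = 6) with the FOXA1 plasmid. With the GFP plasmid it read 13.30 ± 0.16 (SD, n = 6), a gap within the arrays' spread (two-sided exact p = 0.165), so the transfected gene did not check the labels. Before normalization the arrays' median log2 intensities lay between 7.31 and 7.63, with FOXA1 3 the highest and GFP 3 the lowest. Luminal prostate markers were present, with 8 of 8 measured ones past the filter (KLK3, prostate-specific antigen, at 10.34). Of the basal markers with a probe 1 of 3 passed the filter (ITGB4, at 7.42), of the leukocyte markers 2 of 5 (CD2 at 7.60 and MS4A1 at 7.57) and of the endothelial markers 1 of 4 (VWF, at 9.12), while KRT5, KRT14, PTPRC, PECAM1 and CDH5 lay under it. Of the stromal markers 7 of 7 passed the filter, with ACTA2 at 9.89 and VIM at 9.48. COL1A1, COL1A2, COL3A1, DCN and LUM lay between 7.41 and 7.54, near the background estimate. The filter, at 7.41, lies under that estimate. Of the 7 stromal markers 3 stood above the estimate, and ITGB4 did not. In these bulk samples fewer cells of a kind and less RNA per cell cannot be told apart.

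Many members moved together across the replicate numbers, as described below, and HIF binds a core of ACGTG or GCGTG. The 250 bases before the start site are therefore shown for the 5 of these genes with the widest range over the arrays and an entry in RefSeq's promoter table (build GRCh38.p14). Capitals mark each match to ACGTG or GCGTG on either strand (CACGT and CACGC on the strand printed), and the palindrome CACGTG, which is also the E-box of other factors, counts as a match on each strand. PLOD2 stands at chr3:146161185-146161434 on the minus strand, BHLHE40 at chr3:4979187-4979436 on the plus strand, P4HA1 at chr10:73096867-73097116 on the minus strand, ANKRD37 at chr4:185396591-185396840 on the plus strand and DDIT4 at chr10:72273674-72273923 on the plus strand.
PLOD2: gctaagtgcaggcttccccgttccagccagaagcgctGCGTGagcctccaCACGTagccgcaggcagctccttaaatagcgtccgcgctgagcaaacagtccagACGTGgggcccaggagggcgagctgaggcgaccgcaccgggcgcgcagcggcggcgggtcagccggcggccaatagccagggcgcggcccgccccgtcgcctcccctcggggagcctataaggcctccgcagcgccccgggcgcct
BHLHE40: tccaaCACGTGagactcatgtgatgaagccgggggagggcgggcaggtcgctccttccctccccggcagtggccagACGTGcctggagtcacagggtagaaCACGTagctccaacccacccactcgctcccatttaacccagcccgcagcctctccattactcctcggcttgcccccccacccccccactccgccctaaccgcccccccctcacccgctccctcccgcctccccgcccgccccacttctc
P4HA1: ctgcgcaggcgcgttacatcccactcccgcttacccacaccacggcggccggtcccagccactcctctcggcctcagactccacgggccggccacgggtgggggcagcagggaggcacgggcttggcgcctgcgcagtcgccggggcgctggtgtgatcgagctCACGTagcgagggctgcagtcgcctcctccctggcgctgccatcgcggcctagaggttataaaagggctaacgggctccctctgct
ANKRD37: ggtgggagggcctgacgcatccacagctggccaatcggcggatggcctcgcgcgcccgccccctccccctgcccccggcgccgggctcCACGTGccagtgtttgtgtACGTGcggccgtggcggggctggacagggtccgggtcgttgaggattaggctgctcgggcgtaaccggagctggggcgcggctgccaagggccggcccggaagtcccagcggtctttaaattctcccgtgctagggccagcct
DDIT4: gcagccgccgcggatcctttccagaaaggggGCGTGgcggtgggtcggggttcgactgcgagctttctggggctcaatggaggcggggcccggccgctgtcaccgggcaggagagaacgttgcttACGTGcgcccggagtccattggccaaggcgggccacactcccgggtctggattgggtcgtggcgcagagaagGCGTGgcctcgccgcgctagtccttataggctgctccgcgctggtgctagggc

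Matches to ACGTG stood in all 5 of these windows, 4 in BHLHE40, 3 in ANKRD37, 2 in PLOD2 and 1 each in P4HA1 and DDIT4. Of the 32 members with an entry, 20 (62.5%) held ACGTG, against 18.7% of the 27305 genes in the table, and 27 (84.4%) held either core, against 43.1%. The members were chosen as known HIF targets and regulators, so these shares are a description and no independent evidence. Among members with an entry, ACGTG stood in 8 of the 13 whose levels differed by replicate number and in 8 of the 13 tested ones that did not pass. The P4HA2 window held neither core although P4HA2 was among the genes that differed. Where a gene had several start sites the one listed first was used. BNIP3L, NDRG1, VEGFA, VHL and ZNF395 had no entry.

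Many of the targets differed between replicate numbers. The wide range of several hypoxia genes and their height on GFP 3 and FOXA1 3 were known when the members and lists were chosen. The counts by number and by range, here and below, are therefore a description and no independent support. Of the 31 tested members, 16 differed by replicate number (limma's moderated F test with group as a factor, adjusted p under 0.05 over all genes), against 2.53% of the 12420 genes. In each of these 16 the number 3 pair, GFP 3 and FOXA1 3, had the highest mean of the 6 numbers, against 51.6% of the 314 genes of the whole table that passed, and in 15 of them the number 4 pair came second. Number 3 had the highest mean in 25 of all 31 members, against 26.0% of all genes. Number 3 came first and number 4 second in 21 of 31 members, against 1349 of the 12420 genes. Number 2 or 5 had the lowest mean in 23 of 31 members, against 4326 of the 12420 genes. Among the 16, the lowest mean fell on number 5 in 8, on number 2 in 6 and on number 1 in 2. The mean of the number 3 arrays stood between 1.75-fold and 5.58-fold above the mean of the other numbers, while GFP 3 and FOXA1 3 differed from each other by a median of 0.17 and at most 0.50 on the log2 scale. The 2 arrays of number 3 were the 2 highest of all 12 in 18 of 31 members, against 5.16% of all genes.

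**Figure D1:**
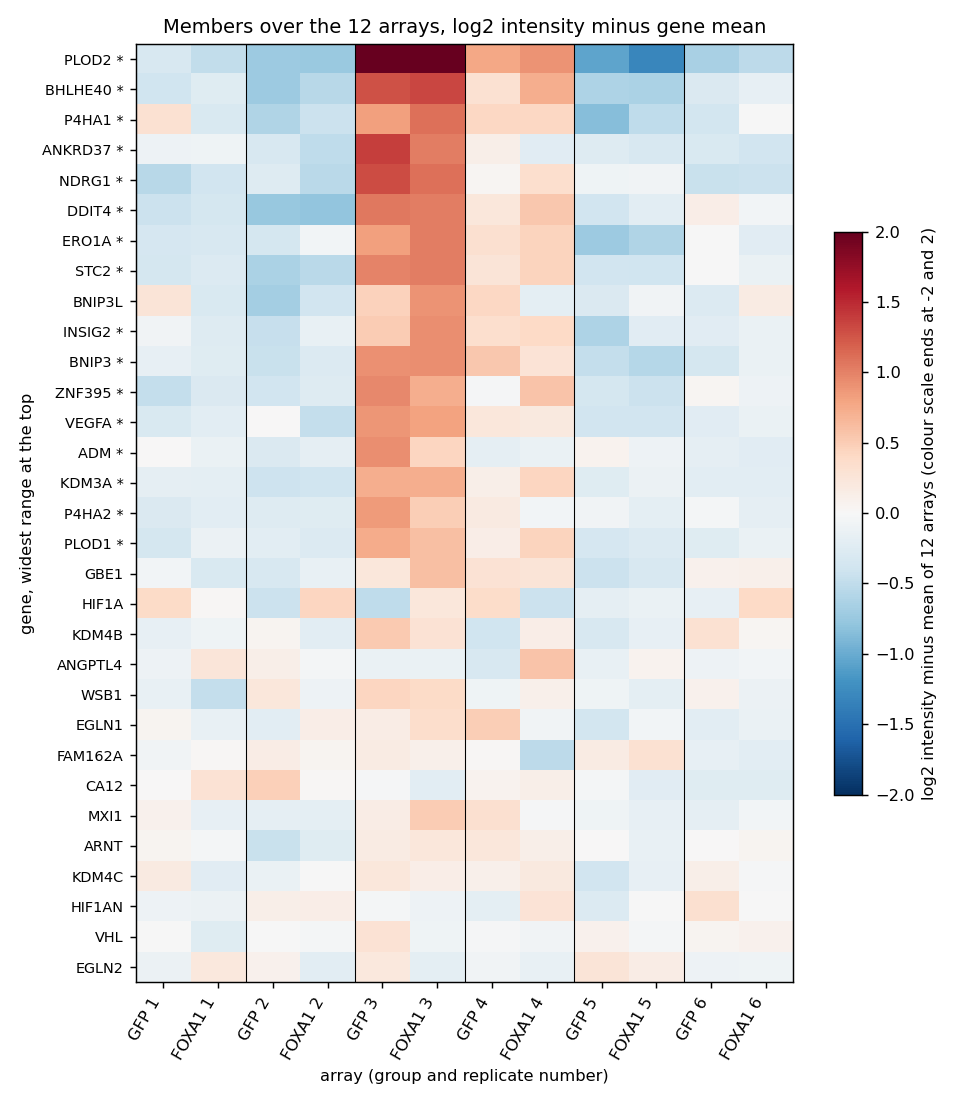
Each row is one of the 31 tested members and each column 1 array, ordered by replicate number with GFP before FOXA1; colour is log2 intensity minus the gene's mean over the 12 arrays, and an asterisk marks the 16 genes that differed by replicate number. The number 3 columns are the reddest in the upper rows in both groups, and HIF1A, HIF1AN and EGLN2 in the lower rows are not high on both number 3 arrays.

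The range itself was wide. The highest and lowest array differed by 2-fold or more in 18 of the 31 members, against 10.0% of all genes, with a median range of 1.14 on the log2 scale against 0.59 for all genes. Replicate number held a median of 90.6% of the members' variance within groups, against 58.5% for all genes. The filter is on the mean over all arrays, so a gene that reached it through the number 3 arrays alone could have passed; the 16 genes that differed had means between 7.78 and 13.59.

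**Figure D2:**
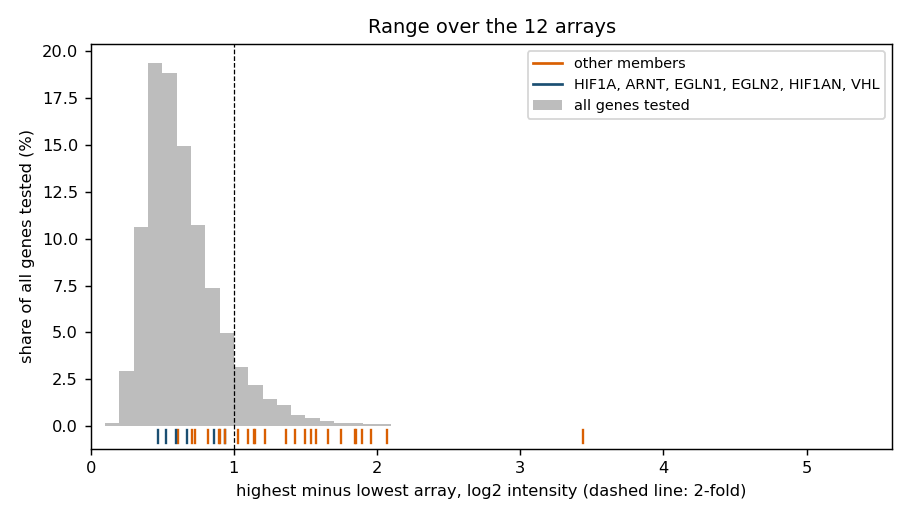
Bars give the share (%) of the 12420 tested genes by the difference between their highest and lowest array in log2 intensity, and ticks under the axis mark the 31 tested members, in blue the HIF subunits, sensors and VHL. PLOD2 lies far to the right at 3.44, most other targets lie right of the 2-fold line, and the blue ticks lie left of it, that of HIF1A, at 0.94, being covered by the tick of KDM4B.

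Collagen-modifying enzymes were the group in which every tested member differed by replicate number, 4 of 4. The groups by role are small, and their counts, here and below, stand against 2.53% of all genes. PLOD2, the lysyl hydroxylase that directs the type of collagen cross-link, ran from 7.46 through a median of 8.26 to 10.90 in the FOXA1 arrays and from 7.72 through 8.29 to 10.77 in the GFP arrays. Its range of 3.44, which is 10.8-fold, ranked 4 among all 12420 genes. GFP 3 (10.77) and FOXA1 3 (10.90) were the highest, GFP 4 (9.54) and FOXA1 4 (9.67) followed, GFP 5 (7.72) and FOXA1 5 (7.46) were the lowest, and the groups overlapped throughout. The test by number gave an adjusted p of 3.42e-07 in limma. A second PLOD2 probe past the filter spanned 0.71 with its highest array again FOXA1 3.

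P4HA1 and P4HA2 are the catalytic subunits of prolyl 4-hydroxylase, which stabilises the collagen triple helix. P4HA1 ran from 9.74 through 10.10 to 11.36 in the FOXA1 arrays and from 9.41 through 10.22 to 11.07 in the GFP arrays, with both number 3 arrays on top and GFP 5 at the bottom (limma adjusted p by number 0.00313). Number 4 read 10.67 on both arrays, but GFP 1 lay at 10.56 against 9.95 for FOXA1 1, so the arrays of number 1 were further apart than those of number 3. P4HA2 stood at 9.36 on FOXA1 3 and 9.71 on GFP 3 and between 8.58 and 9.04 on all others (adjusted p 0.0136 in limma), and its second probe past the filter followed it with its highest array on GFP 3 too. PLOD1, the lysyl hydroxylase of the helix, ran from 11.88 to 12.98 (adjusted p 0.00750 in limma). LOX, the oxidase that starts collagen cross-links, lay under the filter, from 6.40 to 7.18.

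Among the growth, stress and metabolic genes 5 of 7 tested members differed by number, against 2.53% of all genes. In all 7 number 3 had the highest mean, against 26.0% of all genes. NDRG1, a stress-inducible protein that is also androgen-regulated in prostate cells, ran from 11.09 through 11.40 to 12.72 in the FOXA1 arrays and from 11.07 through 11.46 to 12.92 in the GFP arrays (adjusted p 0.000251 in limma). The number 3 pair stood at the top of both groups, and the other 10 arrays reached at most 11.95. DDIT4, an inhibitor of mTOR signalling, ran from 11.78 through 12.43 to 13.58 in the FOXA1 arrays and from 11.80 through 12.44 to 13.62 in the GFP arrays (adjusted p 0.000170 in limma). Number 3 was its highest and number 2 its lowest array in both groups. ANKRD37, an ankyrin-repeat protein, ran from 9.61 through 9.85 to 11.14 in the FOXA1 arrays and from 9.80 through 9.94 to 11.51 in the GFP arrays (adjusted p 0.000199 in limma). All arrays but the number 3 pair lay at or under 10.24, and number 4 had a mean of 10.06. ERO1A, the oxidase that drives disulphide formation in the endoplasmic reticulum, ran from 8.37 through 8.83 to 9.99 in the FOXA1 arrays and from 8.24 through 8.80 to 9.80 in the GFP arrays (adjusted p 0.000459 in limma). Number 3 was highest and number 5 lowest in both groups, and number 4 lay between them, at a mean of 9.35. INSIG2, which binds SCAP and so holds the transcription factor SREBP in the endoplasmic reticulum, ran from 9.07 through 9.19 to 10.26 in the FOXA1 arrays and from 8.72 through 9.18 to 9.84 in the GFP arrays (adjusted p 0.00650 in limma), with the number 3 pair on top. Without FOXA1 3 its adjusted p was 0.0540. GBE1, the glycogen branching enzyme, spanned 1.03 and just missed the threshold (adjusted p 0.0504 in limma), its 2 highest arrays being FOXA1 3 and GFP 4. WSB1, a substrate receptor of a ubiquitin ligase, spanned 0.90 and did not pass (adjusted p 0.163 in limma), although its highest arrays were also the number 3 pair. Its second probe past the filter was highest on FOXA1 3 (8.78), but read 8.36 on GFP 3, under that probe's median of 8.42.

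Transcription and chromatin genes were divided, 3 of 6 tested members differing by number. BHLHE40, a repressor of the basic helix-loop-helix family, ran from 9.89 through 10.32 to 11.86 in the FOXA1 arrays and from 9.79 through 10.17 to 11.79 in the GFP arrays (adjusted p 2.59e-05 in limma). Its number means fell from 11.82 for number 3 to 11.04 for number 4 and lay between 9.87 and 10.29 for the others. ZNF395, a zinc finger transcription factor, stood at 10.24 on FOXA1 3 and 10.47 on GFP 3, with FOXA1 4 at 10.09 and GFP 4 at 9.50 (adjusted p 0.00720 in limma). KDM3A, a histone H3 lysine 9 demethylase, read 9.18 on FOXA1 3, 9.17 on GFP 3 and from 8.03 to 8.87 on the others (adjusted p 0.00274 in limma). The demethylases KDM4B and KDM4C and MXI1, an antagonist of MYC, spanned 0.93, 0.61 and 0.71, had their highest mean on number 3 and did not pass (adjusted p 0.287, 0.469 and 0.359 in limma). MXI1 had a second probe past the filter whose highest array was FOXA1 2, so its probes disagreed. BHLHE41, the paralogue of BHLHE40, lay under the filter with a mean of 6.69.

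Secreted factors differed by number in 3 of 4 cases. VEGFA, the growth factor of blood vessels, ran from 8.40 through 8.70 to 9.68 in the FOXA1 arrays and from 8.50 through 8.77 to 9.77 in the GFP arrays, and both number 3 arrays lay above all others (adjusted p 0.00395 in limma). Its second probe past the filter spanned 1.44 with the same 2 arrays highest. STC2, a secreted glycoprotein, ran from 9.80 through 10.13 to 11.36 in the FOXA1 arrays and from 9.70 through 10.15 to 11.33 in the GFP arrays (adjusted p 0.000146 in limma). Its highest arrays were the number 3 pair and its lowest the number 2 pair. ADM, the vasodilator peptide adrenomedullin, ran from 7.55 through 7.65 to 8.20 in the FOXA1 arrays and from 7.48 through 7.69 to 8.70 in the GFP arrays (adjusted p 0.0347 in limma). The number 3 pair was the highest, and the next array, GFP 5, read 7.85. ANGPTL4, an inhibitor of lipoprotein lipase, had another profile, with its lowest number mean on number 3 and its highest value on FOXA1 4, at 8.53 (adjusted p 0.920 in limma). Its probes disagreed: another, whose mean of 6.97 lay under the filter, spanned 1.41 and was highest on GFP 3 (7.77) and FOXA1 3 (7.58).

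Of the mitochondrial genes, the mitophagy receptor BNIP3 differed by number, reading 14.52 on FOXA1 3, 14.50 on GFP 3, 13.86 on FOXA1 4, 14.13 on GFP 4 and from 13.02 to 13.46 on the others (adjusted p 0.000627 in limma). Its paralogue BNIP3L ran from 10.41 through 10.65 to 11.68 in the FOXA1 arrays and from 10.11 through 10.78 to 11.25 in the GFP arrays and did not pass (adjusted p 0.143 in limma), although the number 3 pair was highest. It passed without FOXA1 4 (limma adjusted p 0.00213) or GFP 4 (0.00255). In these 2 settings 1603 and 2045 of all 12420 genes passed, against 314 with all arrays. GFP 4 read 11.20 for BNIP3L against 10.59 for FOXA1 4, a wider gap than in BNIP3. The other BNIP3L probe was also highest on FOXA1 3. FAM162A, a mitochondrial protein of hypoxic cell death, spanned 0.82, with its highest mean on number 5 and its lowest on number 4 (adjusted p 0.370 in limma). CA12, a membrane carbonic anhydrase of pH control, ran from 8.29 to 9.01 with its highest array on GFP 2 (adjusted p 0.370 in limma).

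**Figure D3:**
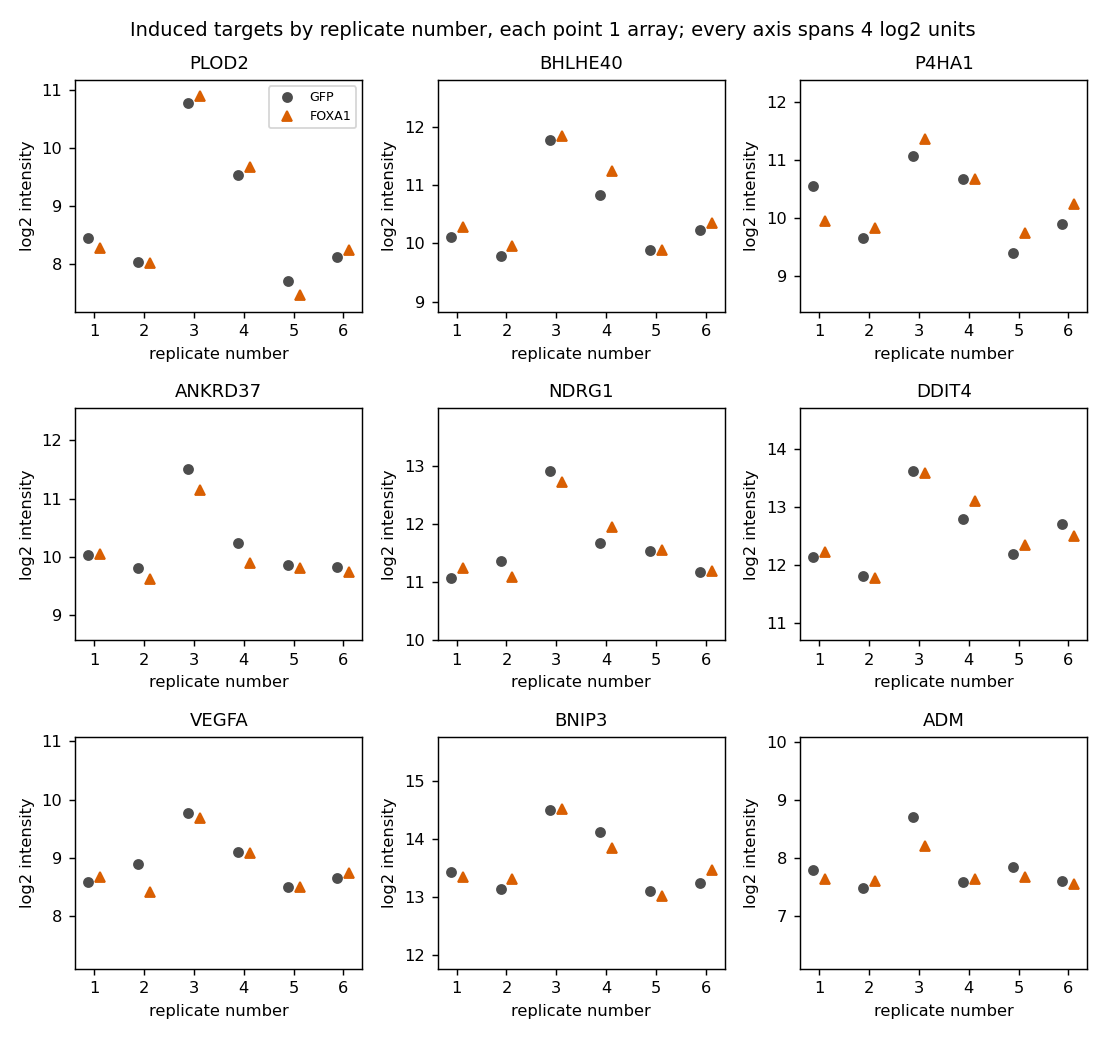
Log2 intensity of 9 targets against replicate number, each point 1 array (grey circles GFP, orange triangles FOXA1), on axes that each span 4 log2 units. The number 3 pair stands highest in every panel, and number 4 has the second highest mean in all but ADM. The 2 groups lie apart at some numbers, as for P4HA1 with 9.95 on FOXA1 1 and 10.56 on GFP 1. ADM reaches 8.20 on FOXA1 3 and 8.70 on GFP 3.

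The subunits and sensors did not pass the test by number. Of the 6 that were tested (HIF1A, ARNT, EGLN1, EGLN2, HIF1AN, VHL), 0 differed in limma at the adjusted threshold and 1, ARNT, did at an unadjusted p under 0.05. Over all genes these shares were 2.53% and 15.5%, so the counts of these 6 lie near those of any genes. HIF1A ran from 8.26 through 8.81 to 9.11 in the FOXA1 arrays and from 8.18 through 8.51 to 9.06 in the GFP arrays. Its level on FOXA1 3 was 8.92 and on GFP 3 was 8.18, the lowest of all 12. On this brightest probe the arrays on which the targets were highest thus took opposite sides. Replicate number held 15.1% of its variance within groups (adjusted p 0.936 in limma). Its other probes past the filter had their lowest values on GFP 3 (7.78) and GFP 6 (8.19), and they disagreed on FOXA1 3. On the first, FOXA1 3 (8.19) also lay under the probe's median of 8.26. On the second, FOXA1 3 was the highest array (8.81), and GFP 3 (8.38) lay under the median of 8.60. EPAS1, the other alpha subunit, was under the filter, from 6.48 to 7.24. ARNT ran from 7.27 through 7.52 to 7.74 in the FOXA1 arrays and from 7.07 through 7.54 to 7.74 in the GFP arrays, with a number mean of 7.71 on number 3 and 7.17 on number 2 (adjusted p 0.227 in limma).

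EGLN1, the main oxygen sensor and itself a HIF target, ran from 7.71 through 7.80 to 8.21 in the FOXA1 arrays and from 7.49 through 7.79 to 8.36 in the GFP arrays. Its highest arrays were GFP 4 and FOXA1 3 (adjusted p 0.526 in limma). EGLN2, another prolyl hydroxylase, ran from 10.85 through 10.95 to 11.27 in the FOXA1 arrays and from 10.95 through 11.06 to 11.32 in the GFP arrays (adjusted p 0.757 in limma). Its range of 0.47 was the narrowest of the 31 members, while its second probe past the filter spanned 0.87 with its highest array on GFP 3. EGLN3, also known as a HIF target, lay under the filter on this array, from 6.93 to 7.20. HIF1AN ran from 8.28 through 8.38 to 8.67 in the FOXA1 arrays and from 8.12 through 8.31 to 8.72 in the GFP arrays (adjusted p 0.752 in limma), with both its ends in the GFP group. VHL ran from 10.71 through 10.89 to 11.02 in the FOXA1 arrays and from 10.93 through 10.97 to 11.23 in the GFP arrays on its brightest probe (adjusted p 0.863 in limma), with GFP 3 the highest. Its probes disagreed: another ran from 7.36 on FOXA1 4 to 8.59 on GFP 4, with 7.48 on GFP 3, and the third from 8.99 on FOXA1 4 to 9.86 on GFP 2.

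**Figure D4:**
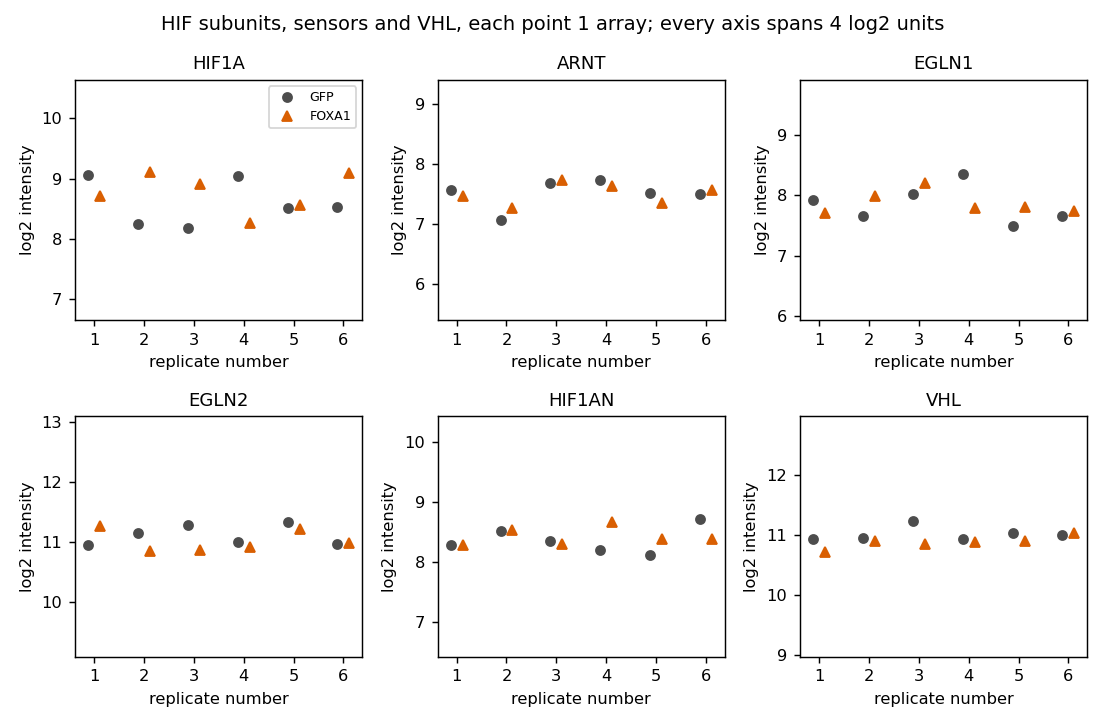
Log2 intensity of HIF1A, ARNT, 2 prolyl hydroxylases, HIF1AN and VHL against replicate number, each point 1 array (grey circles GFP, orange triangles FOXA1), on axes that each span 4 log2 units as in the plot of targets. Number 3 has the highest mean for ARNT, EGLN1 and VHL, each with a range of at most 0.86, against 1.22 or more in the 9 plotted targets; HIF1A reads 8.92 on FOXA1 3 and 8.18 on GFP 3.

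The regulators were also set against P4HA1 over the 6 number means, in a family of 5 relations with exact permutation of the pairings, two-sided. HIF1A had Pearson's r = -0.14 (exact p = 0.776, adjusted over the 5 0.782) and Spearman's rho = 0.09 (exact p = 0.919, adjusted 0.919). VHL had r = 0.26 (exact p = 0.619, adjusted 0.782; rho = 0.09, exact p = 0.919, adjusted 0.919), HIF1AN r = -0.14 (exact p = 0.782, adjusted 0.782; rho = 0.09, exact p = 0.919, adjusted 0.919) and EPAS1, under the filter, r = -0.21 (exact p = 0.719, adjusted 0.782; rho = -0.31, exact p = 0.564, adjusted 0.919). ARNT had the highest, r = 0.81 (exact p = 0.05, adjusted 0.250) and rho = 0.89 (exact p = 0.0333, adjusted 0.166), and did not pass after adjustment. Without the 2 numbers farthest from the median of P4HA1, 3 and 5, r over the remaining 4 was -0.10 for HIF1A, -0.09 for EPAS1, 0.92 for ARNT, -0.27 for VHL and -0.45 for HIF1AN. With VEGFA in place of P4HA1, ARNT had r = 0.68 (exact p = 0.131, adjusted 0.655), and 0.03 over the 4 numbers left without 3 and 4, where HIF1A had -0.43 (exact p = 0.408, adjusted 0.680) and 0.73. With the 12 arrays as points, which are not independent where arrays of a number share a source, ARNT passed (permutation p = 0.00360, adjusted 0.0180). The mean of ARNT lies at background, so its differences rest on small changes of intensity.

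Without both arrays of number 3, 5 of the 31 members still differed by replicate number, against 0.862% of all genes. They were PLOD2 (limma adjusted p 0.000360), BHLHE40 (0.00763), DDIT4 (0.0189), STC2 (0.0315) and ERO1A (0.0418). A range of 2-fold or more then stood in 10 of 31 members, against 6.07% of all genes. Without number 3 PLOD2 still spanned 2.21 and BHLHE40 1.47, while ANKRD37 spanned 0.63 and ADM 0.37. The wide range of the last pair thus rested on the number 3 arrays, and that of PLOD2 and BHLHE40 was also seen among the other numbers.

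Of the glycolytic HIF targets 11 of 18 measured genes differed by replicate number, against 2.53% of all genes, and number 3 had the highest mean in 16 of 18, against 26.0%, the 11 among them, with ENO2 spanning 2.41, PFKP 2.38, PFKFB4 2.30 and HK2 1.82. Of 19 further HIF targets that are neither members nor glycolytic, 5 differed, and the widest ranges were those of STC1 (1.92, a paralogue of STC2), VLDLR (1.33), PGM1 (1.31) and HMOX1 (1.25, which did not pass). Of 12 measured partners of the HIF machinery 0 differed in limma, and 1 did at an unadjusted p under 0.05, against the same 2.53% and 15.5% of all genes. The widest ranges among these were those of OS9 (1.17), ARNT2 (1.02), HSP90AB1 (0.91) and SIAH1 (0.75). The luminal marker mean was also highest on number 3, at 11.07 on FOXA1 3 (6 FOXA1 arrays from 10.72) and 11.12 on GFP 3 (6 GFP arrays from 10.63). Of the 8 markers 1, TMPRSS2, passed the threshold by number. The markers were divided: 4 of 8 had their highest mean on number 3, KRT8, KLK2 and ACP3 on number 5 and KRT18 on number 2. Stromal marker means lay at 8.04 and 8.02 on the number 3 arrays, within the ranges of 7.999 to 8.263 and 7.99 to 8.335 of their groups. The number 3 arrays were at opposite ends of the raw intensities (7.63 and 7.31), and what the number stands for is not labelled, so the part of culture, extraction or hybridization in the profile was not tested.

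No member passed the test between plasmids. Of 31 tested, 0 passed an adjusted p of 0.05 in limma, where 0 of 12420 genes (0%) did, and 0 passed an unadjusted p under 0.05, where 203 genes (1.63%) did. In 16 members the FOXA1 mean was higher and in 15 lower, against 53.8% higher over all genes, with a median difference of 0.0013 against 0.0088. In 0 members did the groups fail to overlap, against 0.0644% of all genes. The 95% interval excluded a 2-fold difference for 30 of 31 members and a 1.5-fold difference for 21 of 31, against 99.9% and 96.7% of all genes. In this fit without replicate number, the spread by number made the intervals wide where the targets varied most: that of PLOD2 ran from -1.21 to 1.195 around -0.0092. With number as a block, the standard error fell from 0.57 to 0.085 for PLOD2, from 0.36 to 0.083 for BHLHE40 and from 0.31 to 0.087 for DDIT4. It did not fall for HIF1A, ANGPTL4 and VHL. With the block 0 of 31 members had an unadjusted p under 0.05 in limma.

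The members with the smallest p in each direction are given as values, and limma's adjusted p was 1 for all 6. ANGPTL4 read 8.07 ± 0.26 (SD, n = 6) under the FOXA1 plasmid against 7.84 ± 0.14 (SD, n = 6) under GFP, which is 0.23 higher (standard error 0.11, exact permutation p = 0.0714). HIF1A differed by 0.18 with a standard error of 0.18, and its other probes past the filter by 0.18 and 0.20. INSIG2 differed by 0.18 with a standard error of 0.22. In the other direction VHL differed by -0.13 with a standard error of 0.08 (exact permutation p = 0.0411, not adjusted), and its other probes by 0.0085 and -0.25. WSB1 differed by -0.14 and EGLN2 by -0.09, with standard errors of 0.13 and 0.10, and their second probes past the filter by -0.08 and -0.13. With single arrays left out, ANGPTL4 ran from 0.13 without FOXA1 4 to 0.27 without FOXA1 3, HIF1A from 0.09 without GFP 3 to 0.28 without FOXA1 4, and INSIG2 from 0.01 without FOXA1 3 to 0.30 without GFP 3. VHL ran from -0.16 without FOXA1 6 to -0.09 without GFP 3, WSB1 from -0.23 without FOXA1 3 to -0.06 without FOXA1 1, and EGLN2 from -0.14 without FOXA1 1 to -0.047 without GFP 5.

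**Figure D5:**
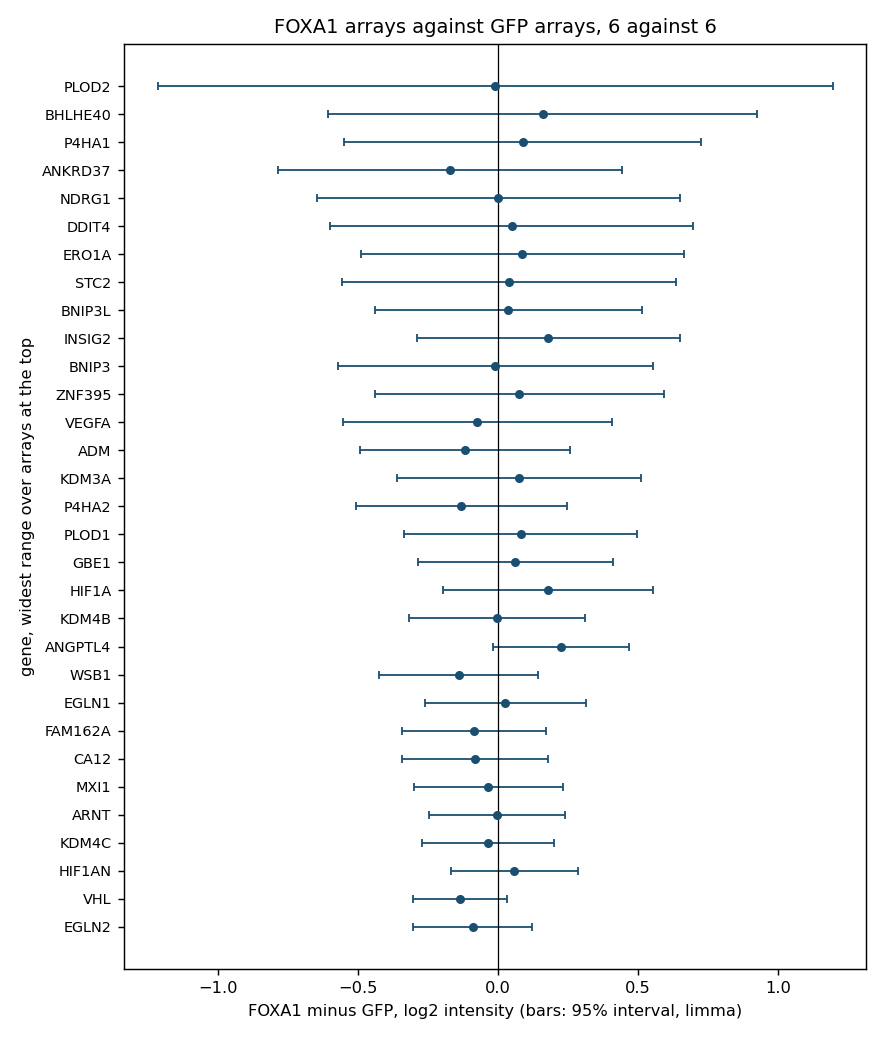
Difference in log2 intensity between the 6 FOXA1 and the 6 GFP arrays for each of the 31 tested members, with the 95% interval from limma as bars, ordered by range over the arrays. Every interval crosses 0, and that of PLOD2 is the widest, from -1.21 to 1.195.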

How the data were processed

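Per the labels' protocols, total RNA from LNCaP cells was biotin-labelled with the Ambion MessageAmp kit for Illumina arrays. The values used are the normalized log2 intensities that the authors deposited for 47323 probes, with like medians on all arrays; a non-normalized log2 table, deposited too, holds 48107. How background was corrected and by which program is not given in the sources used here. Dropped first were 6 probes lacking a value on some array. GEO's platform annotation named the probes (30113 with 1 symbol, 8 with several, the rest unnamed here). A probe was kept if its 12-array mean passed the median probe's (7.41), and the brightest probe was used for each gene. The background estimate is the 95th percentile of the means of 784 probes that the non-normalized table alone holds, after quantile normalization.

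Tests used limma 3.58.1 in R 4.3.3: FOXA1 minus GFP without covariates, and a moderated F test of replicate number with group as a factor, both with Benjamini-Hochberg adjustment over 12420 genes, and exact permutation over 924 arrangements (smallest possible p 0.00216) or 720 orders (smallest possible p 0.00278). The fits were tested on simulated data whose noise was independent between genes and arrays. That test thus could not show the instability of the counts by number. The members and lists were chosen with earlier results of these data known, and the wide range of several hypoxia genes and their height on GFP 3 and FOXA1 3 were among those results, so the test by number is not independent support. Full values were given for the 10 members with the widest range, the subunits, the sensors, VHL, VEGFA and ADM. FOXA1 minus GFP values were given for the 3 members with the smallest p in each direction. Arrays limit precision by their number: the median half-width of a gene's 95% interval was 0.217. Alternatives covered normalization, filter, probes, moderation, replicate block and arrays left out. The files name no chip, so no chip block could be fitted.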

Additional observations from a re-analysis of the deposited data

Results flagged for a closer look

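In 70 groups of 6 arrays (35 members, each plasmid separately), 11 had a highest or lowest array far from the other 5. Chance gives about 1 in 20 groups where groups are independent. These groups are not, since the members share the same 12 arrays and many moved together. Of the 11, 9 were a number 3 array standing above its group, a height known for several hypoxia genes when the members were chosen. On GFP 3 they were ADM (8.70, next array 7.85), ANKRD37 (11.505, next 10.24), NDRG1 (12.92, next 11.67), ZNF395 (10.47, next 9.55) and VHL (11.23, next 11.04). On FOXA1 3 they were ADM (8.20, next 7.67), ANKRD37 (11.14, next 10.04), MXI1 (8.29, next 7.75) and P4HA2 (9.36, next 8.81). The other 2 were low arrays of dim genes, EPAS1 on GFP 1 (6.48, next 6.84) and ARNT on GFP 2 (7.07, next 7.51). PLOD2 and BHLHE40, the members with the widest range, are not among them, and their number 4 arrays lie between number 3 and the rest.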

How the results depend on the processing

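The 0 calls for FOXA1 against GFP, over all genes and over the members, were the same in all 26 alternatives. The deviations of same-numbered arrays from their group means correlated over all genes at 0.205, 0.27, 0.531, -0.268, 0.638 and 0.245 for numbers 1 to 6, so 5 of 6 were positive and number 4 was not, and 4 of 12 arrays correlated best with their own number. As not every pair was positive and the labels do not explain the numbers, the main fit of FOXA1 against GFP did not take them as pairs. The test by number and the number means do group the 2 arrays of a number, number 4 included. With the replicate block 0 genes passed for FOXA1 against GFP, as without it, with 335 genes at an unadjusted p under 0.05, against 203. The 16 members that differed by number became 5 without both arrays of number 3, and the 18 with a 2-fold range became 10; single arrays left out gave 11 (GFP 3) to 21 (FOXA1 4) members. The count of all genes that differed by number was unstable: 314, against 115 with median centring, 200 without number 2, 107 without number 3, 1692 without number 4, 92 without number 5, and from 104 (GFP 5) to 2045 (GFP 4) with single arrays left out (1603 without FOXA1 4, 201 without FOXA1 1, 188 without FOXA1 2, 111 without FOXA1 5, 180 without GFP 2, 138 without GFP 3, 208 without GFP 6); the cause was not tested. Median centring left 12 members, with P4HA1 (adjusted p 0.0976) and INSIG2 (0.189) past no threshold, and INSIG2 also missed it without FOXA1 3 (0.0540). Of the 5 relations with P4HA1, 1 passed with the 12 arrays as points, ARNT (r = 0.76), where HIF1A turned to 0.12; EPAS1 turned to 0.0449 with VEGFA as target. No chip block was run, since the files name no chip for an array. Genes near background, such as ARNT and ADM, limit what these intensities show.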

Other observations

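Some genes outside the HIF lists also differed by replicate number. VWF, a protein of endothelium and platelets, spanned 1.67 with its highest mean on number 3 (limma adjusted p 0.0343), while the other endothelial markers, PECAM1, CDH5 and KDR, had means of 7.39, 6.61 and 6.80, under the filter. ACTA2, smooth muscle actin, spanned 1.88 with another profile: its highest mean was on number 2, at 11.05, and its lowest on number 6, at 9.33 (adjusted p 0.000509 in limma). The stromal collagens COL1A1, COL1A2 and COL3A1 had means of 7.54, 7.47 and 7.45, all near the background estimate of 7.54.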
